A study of Mus musculus with 12 samples.

Results

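The colons of mice lacking IL4i1 were set directly against the colons of mice lacking LAO1, with no wild type array in the difference. These 2 genotypes were chosen by their labels and held 6 of the 12 arrays of the series, 3 from each knockout, and the comparison covered 19505 genes named on the array. The IL4i1 knockout and LAO1 knockout mice each lacked 1 of the enzymes, double knockout mice lacked both and wild type mice lacked neither. All were healthy males of 12 to 16 weeks, and the total RNA of colonic tissue was measured on Affymetrix arrays, so that each value is the log2 brightness of a probe set. How the deletions were made, the genetic background and whether an array held RNA of 1 mouse are not given in the sources used here. The labels state that 4 mice of each genotype were chosen at random, and nothing says that the 3 arrays came from separate mice, so the p-values measure only the spread between these arrays.

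Il4i1 and Lao1 encode L-amino acid oxidases, which turn amino acids into keto acids and release ammonia and hydrogen peroxide. IL4i1 is known from immune cells, where it acts on aromatic amino acids and feeds products into aryl hydrocarbon receptor signalling, and LAO1 is known in mice from milk, where the peroxide it makes acts on bacteria. The design text names L-amino acid metabolism and the kynurenine pathway as the interest of the study, and the comparison here asks where the colons of the single knockouts differ from each other.

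The 6 arrays had like medians, between 5.42 and 5.49, and correlated with each other at 0.972 to 0.99 across probes. IL4i1 knockout replicate 2 stood apart, with a score of 70.6 on the component that carried 36.6% of the variance of the 6 arrays, against -31.7 to -3.30 for the other 5. Where leaving out that array moved a list's median or count much, the value without it is given beside the result. Over all named genes, 454 were higher and 505 lower at an unadjusted p under 0.05 without it, against 497 and 649 with all arrays. The defining colon markers were present on every array: Muc2, the mucin of goblet cells, stood at 19.91 to 19.93, the highest value of the table, and Cdh1, the cadherin of epithelia, at 18.18 to 19.11 in IL4i1 knockout and 18.66 to 18.72 in LAO1 knockout colons. The pancreatic enzyme Cpa1 was dim on all 6 arrays, at 4.45 to 5.27 in IL4i1 knockout and 5.05 to 5.20 in LAO1 knockout colons. It read 18.12 on double knockout replicate 2, which enters the fit only through the estimate of the spread.

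Whether the targeted genes were lost could not be checked on these arrays. Il4i1 was not analysed here. Lao1 read 2.98, 3.33 and 3.16 in IL4i1 knockout colons, against 3.10, 2.68 and 3.24 in LAO1 knockout colons, with 2.64 to 3.24 in wild type. These are values near the bottom of the range, the groups overlapped, and the difference was 0.15 ± 0.22 (SE, limma adjusted p = 0.952), so Lao1 had no reliable level in the colon of any genotype and does not check the labels.

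A single gene passed the test across the whole table. Rhbdl2, a protease of the rhomboid family that cuts proteins within the membrane, read 8.90, 9.88 and 9.51 in IL4i1 knockout colons, against 6.97, 6.07 and 6.98 in LAO1 knockout colons. All 3 IL4i1 knockout arrays lay above all 3 LAO1 knockout arrays. Rhbdl2 was 6.76-fold higher in the IL4i1 knockout, a log2 difference of 2.76 ± 0.32 (SE, n = 3 each, limma adjusted p = 0.0168). It was 1 of 22206 probes with an adjusted p under 0.05 (0.0045%). The double knockout read 6.06, 6.47 and 6.65 and the wild type 8.67, 8.29 and 7.94, so the arrays of the 2 genotypes that lack LAO1 formed the low side and those of the 2 that carry it the high side. Against wild type, Rhbdl2 stood 1.13 higher in the IL4i1 knockout (adjusted p = 0.52) and 1.63 lower in the LAO1 knockout, a difference of -1.63 (adjusted p = 0.84). The difference of 2.76 between the knockouts thus adds up parts on both sides of wild type, and neither part passed the test alone. Both parts share the wild type arrays. Without IL4i1 knockout replicate 2 the difference was 2.53 (adjusted p = 0.0684), and with the 6 arrays fitted alone the adjusted p was 0.096.

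Nt5c1a, a cytosolic nucleotidase that releases adenosine from AMP, was likewise high in the IL4i1 knockout and low in both genotypes that lack LAO1. It read 6.04, 7.17 and 6.58 in IL4i1 knockout colons, against 3.48, 3.68 and 4.09 in LAO1 knockout colons. The groups did not overlap, and the difference was 2.85 ± 0.42 (SE, limma adjusted p = 0.0668), short of the threshold. The double knockout, at 3.54 to 4.02, lay at the LAO1 knockout level, while the wild type read 5.83, 5.97 and 4.18. Rhbdl2 and Nt5c1a both lie on chromosome 4, the chromosome of Lao1, as the 61st and 52nd protein-coding genes after it in the RefSeq gene order. Hpcal4, the 51st gene and a neuronal calcium sensor, stood at 5.01, 5.52 and 5.42 in IL4i1 knockout colons and 4.76, 4.05 and 4.62 in LAO1 knockout colons, a difference of 0.84 ± 0.22 (adjusted p = 0.704).

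**Figure D1:**
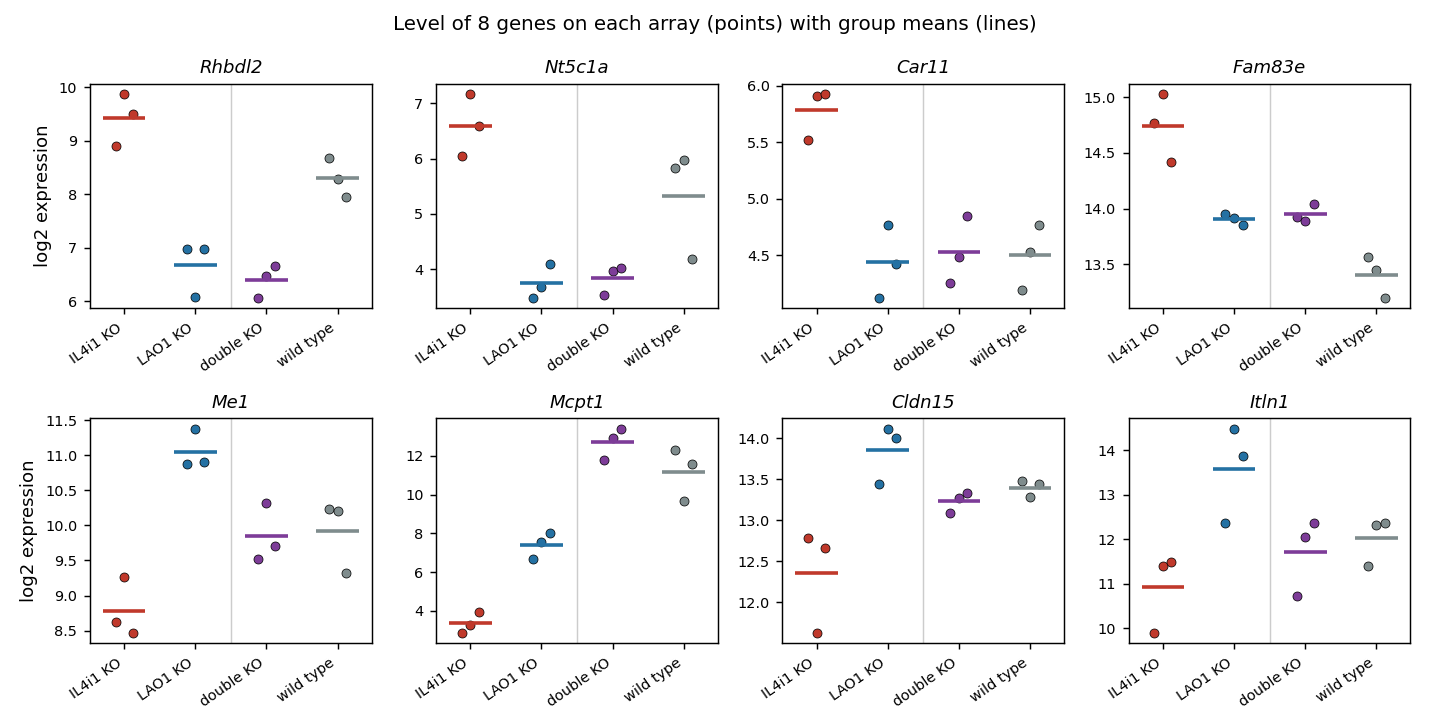
Log2 expression of 8 genes on each array in the IL4i1 knockout, LAO1 knockout, double knockout and wild type, with points for arrays and lines for the means of 3. Rhbdl2 and Nt5c1a are low in both genotypes that lack LAO1, Car11 is high in the IL4i1 knockout alone (5.52 to 5.93), and Mcpt1 is at 2.88 to 3.95 in the IL4i1 knockout and 6.68 to 8.02 in the LAO1 knockout.

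The region around each targeted gene was therefore described gene by gene. In these groups, the loss of an enzyme and any other sequence that travels with its targeted site cannot be told apart. Among the 15 genes on each side of Lao1, 17 were measured, 0 of them had an unadjusted p under 0.05, and their median difference was 0.15. Among the 17 measured around Il4i1 on chromosome 7, 0 were higher and 2 lower at that level, against 5.88% of all named genes. These were Vrk3, a nuclear kinase-related protein 4 protein-coding genes before Il4i1 (-0.89 ± 0.26), and Med25, a Mediator subunit 5 genes after it (-0.77 ± 0.24), with adjusted p of 0.711 and 0.769. Vrk3 read 8.78, 8.31 and 8.54 in IL4i1 knockout colons, against 8.98, 9.45 and 9.87 in LAO1 knockout colons.

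A wider window, chosen after the values were seen, took 100 protein-coding genes on each side. Around Lao1 it held 183 measured genes, of which 8 were higher and 5 lower (7.10%; 4 and 6 without IL4i1 knockout replicate 2), and around Il4i1 165 genes, of which 7 were higher and 6 lower (7.88%), shares near the 5.88% of all named genes. A few members of the windows had large differences. Car11, a carbonic anhydrase relative without enzyme activity, is the 61st protein-coding gene after Il4i1 and read 5.52, 5.91 and 5.93 in IL4i1 knockout colons, against 4.12, 4.77 and 4.42 in LAO1 knockout colons. All 3 IL4i1 knockout values lay above the 9 values of the other genotypes, and the difference was 1.35 ± 0.24 (adjusted p = 0.355). Fam83e, 65 genes after Il4i1, read 14.77, 15.03 and 14.42 in IL4i1 knockout colons and 13.95, 13.92 and 13.85 in LAO1 knockout colons, a difference of 0.83 ± 0.20 (adjusted p = 0.584). The double knockout also lacks IL4i1 but lay near the LAO1 knockout for both genes. It read 4.25, 4.48 and 4.85 for Car11 and 13.93, 13.89 and 14.04 for Fam83e. Wild type colons read 13.57, 13.45 and 13.20 for Fam83e. Ntn5, of the netrin guidance family and 60 genes after Il4i1, differed by 1.15 and by 0.57 without IL4i1 knockout replicate 2. Beside Lao1, Guca2b, the peptide uroguanylin that drives salt and water secretion and the 18th gene after it, was lower in the IL4i1 knockout, at 7.21, 7.29 and 5.70 against 7.23, 8.59 and 7.78 in the LAO1 knockout (-1.13 ± 0.43, adjusted p = 0.829).

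**Figure D2:**
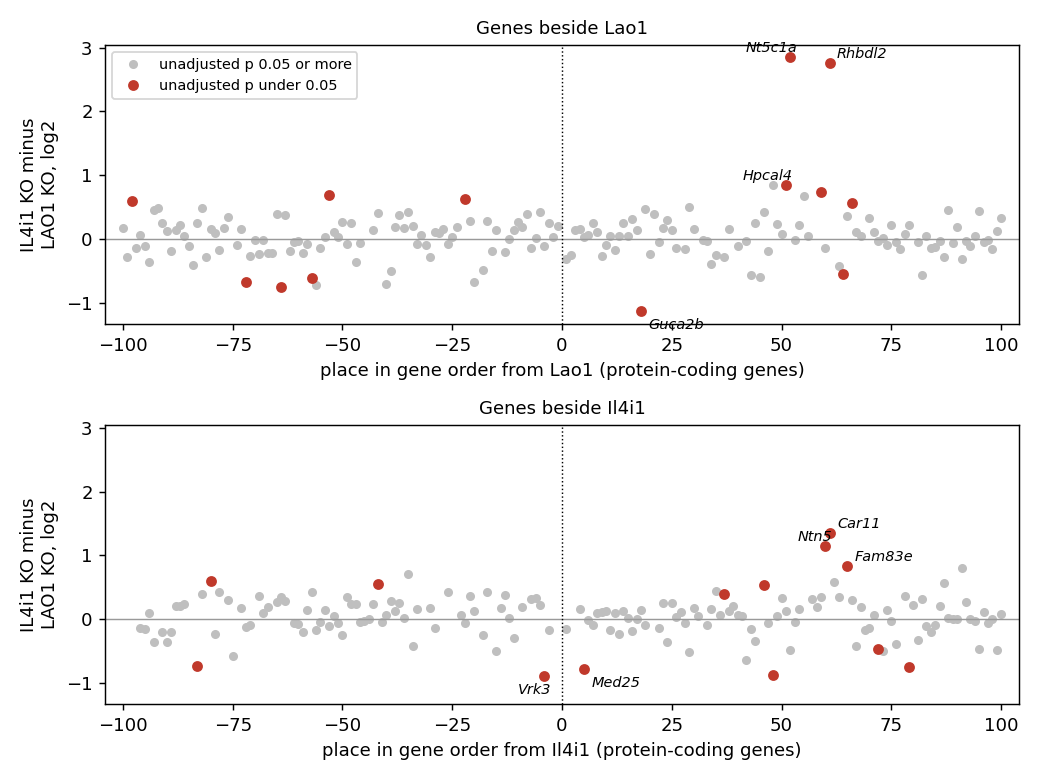
Difference between IL4i1 knockout and LAO1 knockout colons (log2) for the protein-coding genes beside Lao1 and Il4i1, by their place in gene order, with red points for an unadjusted p under 0.05. Nt5c1a (2.85) and Rhbdl2 (2.76) stand far above the other genes beside Lao1, and Car11 (1.35), Ntn5 (1.15) and Fam83e (0.83) stand together beside Il4i1.

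Apart from Rhbdl2, the differences with the smallest p values did not pass the test, and they are given as values. At an unadjusted p under 0.05 there were 1297 of 22206 probes (5.84%), 577 higher and 720 lower in the IL4i1 knockout, and among named genes 497 were higher (2.55%) and 649 lower (3.33%). The 12 genes with the smallest p in each direction differed by 0.83 to 4.05 in size on the log2 scale, and in all 24 the 3 arrays of one knockout lay beyond the 3 of the other. Over all named genes such a separation was seen upwards in 1122 genes (5.75%) and downwards in 1102 (5.65%). Because the 24 were picked by p, their separation says nothing further about them.

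**Figure D3:**
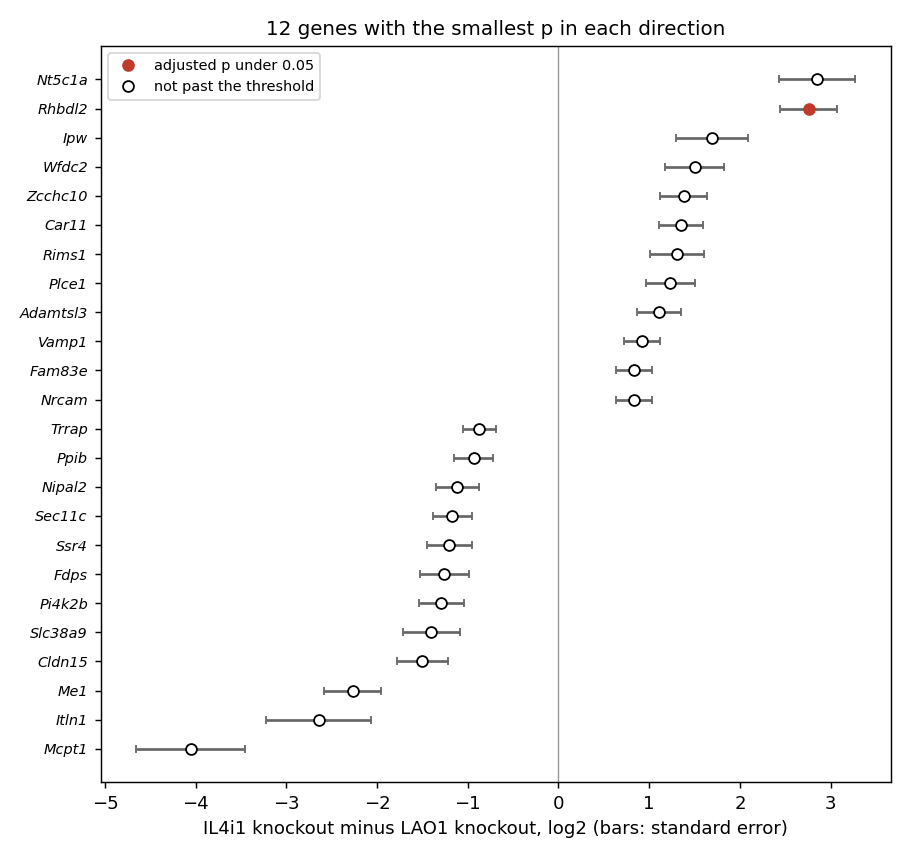
Difference between IL4i1 knockout and LAO1 knockout colons (log2, with standard error bars) for the 12 genes with the smallest p in each direction. Rhbdl2, filled, has an adjusted p of 0.0168, and the other 23, from Nt5c1a at 2.85 to Mcpt1 at -4.05, are open because they did not pass.

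Several of the genes that stood higher in the IL4i1 knockout are known from neurons. Vamp1, a protein of synaptic vesicles, read 7.97, 7.50 and 7.78 in IL4i1 knockout colons, against 6.71, 7 and 6.79 in LAO1 knockout colons (0.92 ± 0.20, adjusted p = 0.519). Rims1, a scaffold of the presynaptic release site, read 10.07, 11.30 and 10.31 against 9.22, 9.08 and 9.46 in the LAO1 knockout (1.31 ± 0.30, adjusted p = 0.567). Nrcam, an adhesion molecule of axons, was dim at 4.20 to 4.39 in the IL4i1 knockout and 3.27 to 3.61 in the LAO1 knockout. The list of enteric neuron and glia genes held 18 measured members, of which 5 were higher and 0 lower at an unadjusted p under 0.05 (2.55% of all named genes were higher), with a median difference of 0.36 against 0.01 for all named genes. The 5 were Syt1, the calcium sensor of transmitter release (0.92), Ret, the receptor that guides enteric neuron precursors (0.70), the neurofilament gene Nefm (0.54), the glial filament gene Gfap (0.66) and Stmn2, a regulator of axonal microtubules (0.51). Other neuronal members that did not reach that level ran from -0.10 for Elavl4 and 0.09 for Uchl1 through Tubb3 (0.20) and Elavl3 (0.30) to Snap25 (0.55). Without IL4i1 knockout replicate 2, 3 of the 18 were higher, 12 differences were positive and the median was 0.34. The side was not particular to neuron genes. The enteroendocrine and serotonin list had a median of 0.315, with 17 of 20 differences positive (51% of all named genes were). At an unadjusted p under 0.05, 0 of its members were higher (2.55% of all named genes were). Without that array its median was 0.20, with 13 positive. In colonic tissue, more cells of a type and more RNA per cell cannot be told apart.

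Muscle genes stood on the same side. Of 20 smooth muscle genes, 19 had a positive difference (51% of all named genes did), and the median was 0.52. At an unadjusted p under 0.05, 2 were higher (2.55% of all named genes were). Without IL4i1 knockout replicate 2 the median was 0.23 and 16 differences were positive. The mean level of the list was 12.66, 13.78 and 13.37 on the IL4i1 knockout arrays, against 12.21, 13.16 and 12.89 on the LAO1 knockout arrays, so the groups overlapped. Myh11, the myosin of smooth muscle, read 16.32, 16.68 and 16.59 in IL4i1 knockout colons, against 15.57, 16.26 and 16.04 in LAO1 knockout colons (0.57 ± 0.33, adjusted p = 0.85). The neuron and glia list had mean levels of 5.33, 5.56 and 5.25 in the IL4i1 knockout, against 4.80, 5.30 and 5.02 in the LAO1 knockout. Its groups overlapped too. The part that the muscle layer taken with each piece of colon had in these values was not tested.

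The other genes near the top of the higher side had no common role. Wfdc2, an antiprotease secreted by mucosal epithelia, read 5.62, 5.61 and 6.98 in IL4i1 knockout colons, against 4.90, 4.40 and 4.41 in LAO1 knockout colons (1.5 ± 0.32). Plce1, a phospholipase of Ras signalling, read 10.33, 10.05 and 10.49 against 9.12, 9.44 and 8.62 in the LAO1 knockout (1.23 ± 0.27). Ipw, an imprinted noncoding RNA on chromosome 7, read 10.30, 10.90 and 9.59 against 8.14, 9.50 and 8.07 in the LAO1 knockout (1.69 ± 0.40). Their adjusted p values were 0.519, 0.519 and 0.584, and Zcchc10 (1.38) and Adamtsl3 (1.11), a matrix protein, also did not pass.

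On the lower side, the enzyme of lipid synthesis Me1 came closest to the threshold. Me1, the cytosolic malic enzyme that makes NADPH for fatty acid and sterol synthesis, read 8.62, 9.26 and 8.47 in IL4i1 knockout colons, against 10.87, 11.38 and 10.91 in LAO1 knockout colons. The difference was -2.27 ± 0.31, a level 4.82-fold lower in the IL4i1 knockout (limma adjusted p = 0.0574). The double knockout (9.52 to 10.32) and the wild type (9.32 to 10.24) lay between the single knockouts with no overlap with either, and Me1 differed from wild type by -1.14 in the IL4i1 knockout and by 1.13 in the LAO1 knockout, 2 values that share the wild type arrays. Without double knockout replicate 2 in the estimate of the spread, the adjusted p of Me1 was 0.043. It was 0.096 with the 6 arrays alone, 0.0696 after quantile normalization and 0.0684 to 0.354 with 1 array of the single knockouts left out.

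Genes of cholesterol synthesis lay below the LAO1 knockout as a group. This pathway joins acetyl units into isoprenoids and then squalene and sterols, and its genes are switched on together by the SREBP transcription factors when sterols are scarce. Of 19 measured genes of the list, 0 were higher and 8 lower in the IL4i1 knockout at an unadjusted p under 0.05 (3.33% of all named genes were lower). In that direction 9 did not overlap between the groups (5.65% of all named genes did not), and the median difference was -0.55. All 19 differences were negative, as were 48.7% over all named genes. None of the 19 passed the test across the table.

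The isoprenoid steps come first in the pathway. Fdps, which makes farnesyl diphosphate, read 7.36, 7.50 and 6.74 in IL4i1 knockout colons, against 8.26, 8.62 and 8.49 in LAO1 knockout colons (-1.26 ± 0.27, adjusted p = 0.519). Idi1, the isomerase before it, read 9.72, 8.82 and 10.02 against 10.66, 11.01 and 10.54 in the LAO1 knockout (-1.22 ± 0.34, adjusted p = 0.704). Neither gene's groups overlapped. Fdft1, which joins farnesyl units into squalene, differed by -0.81, and the squalene epoxidase Sqle by -0.54.

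In the sterol steps, Cyp51, the lanosterol demethylase, read 12.36, 10.21 and 11.32 in IL4i1 knockout colons, against 12.95, 12.69 and 12.29 in LAO1 knockout colons (-1.35 ± 0.49, adjusted p = 0.814), and the groups overlapped at 12.36 and 12.29. Ebp, a sterol isomerase, was tighter, at 9.38, 9.21 and 9.19 against 10, 9.92 and 10.08 in the LAO1 knockout (-0.74 ± 0.18, adjusted p = 0.584). Msmo1 (-0.56) and Nsdhl (-0.67), which remove methyl groups from the sterol ring, also had groups that did not overlap. The carrier Stard4, which moves cholesterol between membranes, differed by -1.10. Regulators of the pathway were closer to 0, at -0.36 for Srebf2, one of the SREBP genes, and -0.46 for Insig1, which holds SREBP in the endoplasmic reticulum, and both were near 0 without IL4i1 knockout replicate 2, at 0.04 and -0.06. That array read lowest of the 6 for Cyp51, Idi1, Fdft1 and Stard4. Without it the median of the 19 was -0.44, 16 differences were negative and 4 genes were lower at an unadjusted p under 0.05.

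The list median was -0.48 for the IL4i1 knockout and 0.08 for the LAO1 knockout when each was set against the same wild type arrays. The wild type mean level of the list was itself spread, at 10.96, 10.74 and 10.05, and thus spanned the LAO1 knockout arrays at 10.71, 10.79 and 10.57 and reached down to the IL4i1 knockout arrays at 10.47, 9.59 and 10.07.

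The upstream sequences of these genes show what they share besides function, and 4 of those with a difference at an unadjusted p under 0.05 are printed with 1 gene of the secretory pathway for contrast. Each is the stretch of 250 bases before the gene's start from RefSeq (mouse GRCm38.p6), in the direction of the gene, with capitals marking the CCAAT box, the letters CCAAT or on the other strand ATTGG, which is bound by NF-Y, a cofactor of SREBP.
Idi1 (chr13:8885356-8885605, plus strand): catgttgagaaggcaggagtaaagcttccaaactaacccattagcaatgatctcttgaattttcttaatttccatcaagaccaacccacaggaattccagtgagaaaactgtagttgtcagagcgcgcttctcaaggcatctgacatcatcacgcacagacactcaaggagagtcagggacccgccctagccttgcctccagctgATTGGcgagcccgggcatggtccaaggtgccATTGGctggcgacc
Cyp51 (chr5:4104698-4104947, minus strand): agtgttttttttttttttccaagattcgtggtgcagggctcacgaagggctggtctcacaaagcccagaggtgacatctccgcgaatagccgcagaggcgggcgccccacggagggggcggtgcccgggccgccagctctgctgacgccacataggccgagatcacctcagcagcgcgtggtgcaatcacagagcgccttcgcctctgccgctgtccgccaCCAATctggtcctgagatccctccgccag
Ebp (chrX:8193513-8193762, minus strand): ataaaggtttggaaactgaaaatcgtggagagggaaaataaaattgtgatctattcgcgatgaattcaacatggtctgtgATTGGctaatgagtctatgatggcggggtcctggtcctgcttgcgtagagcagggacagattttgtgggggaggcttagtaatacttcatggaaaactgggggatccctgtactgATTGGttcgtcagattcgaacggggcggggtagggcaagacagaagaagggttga
Nsdhl (chrX:72918271-72918520, plus strand): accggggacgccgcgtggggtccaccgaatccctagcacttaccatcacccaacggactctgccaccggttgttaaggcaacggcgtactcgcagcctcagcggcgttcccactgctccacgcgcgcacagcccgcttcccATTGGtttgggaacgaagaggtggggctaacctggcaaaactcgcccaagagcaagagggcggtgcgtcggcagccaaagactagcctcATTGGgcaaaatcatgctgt
Ssr4 (chrX:73786773-73787022, plus strand): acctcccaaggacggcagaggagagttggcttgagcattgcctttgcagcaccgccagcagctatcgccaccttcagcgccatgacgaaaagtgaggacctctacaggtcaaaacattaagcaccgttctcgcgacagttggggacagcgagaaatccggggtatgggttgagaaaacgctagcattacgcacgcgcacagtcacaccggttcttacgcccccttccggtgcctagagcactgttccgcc
The CCAAT box was found on either strand in 15 of the 15 cholesterol genes with an upstream sequence in the table, against 10133 of 27025 genes (37.5%) and 5 of 14 genes of the secretory list described next. In these counts a gene was taken as holding the letters if any upstream sequence listed for it did. Ssr4 held none. The core of the sterol regulatory element, TCACNCCAC, was found in 1 of the 15, against 331 of 27025 genes (1.22%). A match is a description of letters and does not show that a factor was bound in these colons.

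**Figure D4:**
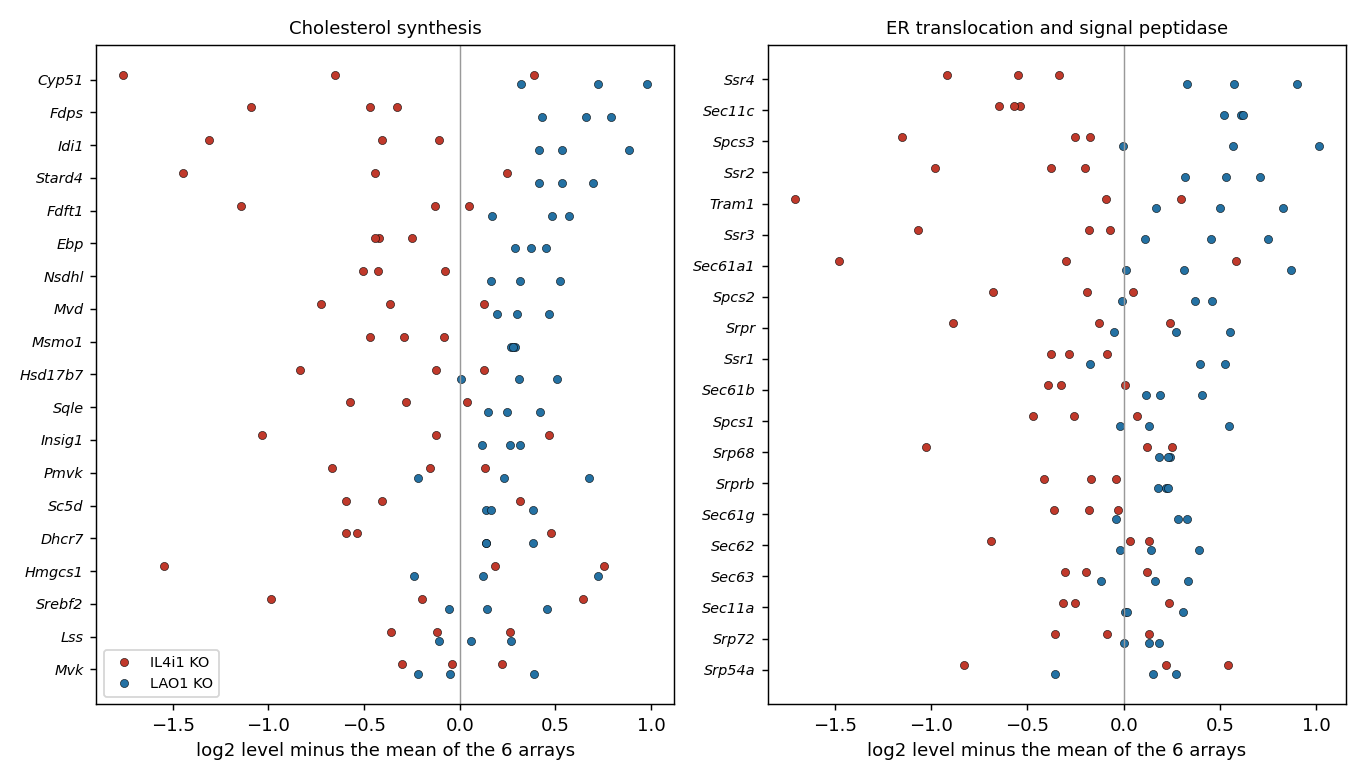
Log2 level of each gene of cholesterol synthesis (left) and of translocation into the endoplasmic reticulum with signal peptidase (right) on the 3 IL4i1 knockout and 3 LAO1 knockout arrays, less the mean of the 6. In every row the mean of the IL4i1 knockout points lies left of that of the LAO1 knockout points, with medians of -0.55 and -0.48.

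Genes that carry new proteins into the endoplasmic reticulum were low beside them. Sec11c, a catalytic subunit of signal peptidase, which cuts the leader from secreted proteins, read 11.05, 10.94 and 11.02 in IL4i1 knockout colons, against 12.20, 12.11 and 12.21 in LAO1 knockout colons. The arrays within each knockout lay close together, and the difference was -1.17 ± 0.21 (adjusted p = 0.355). Ssr4, a subunit of the translocon-associated complex, read 13.61, 13.03 and 13.40 against 14.52, 14.28 and 14.85 in the LAO1 knockout (-1.20 ± 0.25, adjusted p = 0.508). Ppib, a cyclophilin that helps proteins fold there, read 10.35, 10.46 and 10.57 against 11.48, 11.12 and 11.59 in the LAO1 knockout (-0.94 ± 0.21, adjusted p = 0.567).

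These 3 led to a list of 20 translocation and signal peptidase genes that was drawn up after their values were seen. Of the 20, which include Sec11c and Ssr4, 0 were higher and 6 lower at an unadjusted p under 0.05 (3.33% of all named genes were lower), all 20 differences were negative, and the median was -0.48. Without IL4i1 knockout replicate 2, 3 were lower, 19 differences were negative and the median was -0.39. Beside Sec11c and Ssr4, the 6 were Ssr2 (-1.04), Ssr3 (-0.88), Spcs3 (-1.05) and the translocating chain protein Tram1 (-1). The unfolded protein response list, which includes chaperones and sensors of the same compartment, had a median of -0.53 over 17 genes, but -0.12 without that array, and its master chaperone Hspa5 differed by 0.10.

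Markers of plasma cells, which secrete antibody, were low on some of the same arrays. The plasma cell list had a median difference of -0.75 over 10 genes, and -0.45 without IL4i1 knockout replicate 2. At an unadjusted p under 0.05, 0 were higher and 1 lower (2.55% and 3.33% of all named genes). Jchain, the joining chain of IgA, read 17.71, 12.50 and 18.18 in IL4i1 knockout colons, against 19.27, 17.45 and 18.39 in LAO1 knockout colons (-2.24 ± 1.17, adjusted p = 0.845), and the low reading of replicate 2 made most of the difference, which was -0.43 without it. The mean level of the list was 8.74, 7.30 and 8.54 in IL4i1 knockout colons, against 9.55, 8.35 and 9.18 in LAO1 knockout colons. The part of plasma cell number in the translocation values was not tested. Goblet cell markers differed less, with a median of -0.21 and 0.00 without that array.

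Mcpt1 had the widest difference of the 24 genes above. Mcpt1, a protease of mucosal mast cells, read 2.88, 3.26 and 3.95 in IL4i1 knockout colons, against 6.68, 7.55 and 8.02 in LAO1 knockout colons (-4.05 ± 0.60, limma adjusted p = 0.0668). The double knockout read 11.77, 12.95 and 13.41 and the wild type 12.30, 9.68 and 11.58, so the single knockouts were both below the other genotypes and ordered among themselves. Against the same wild type arrays, Mcpt1 fell by 7.82 in the IL4i1 knockout (adjusted p = 6.75e-05, 1 of 3 probes past the threshold in that comparison, 0.0135% of all), while the LAO1 knockout differed by -3.77 (adjusted p = 0.282). The IL4i1 knockout readings lie near the bottom of the range, where no level is reliable, so their distance from the other groups may be understated.

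Of 19 mast cell genes, 0 were higher and 4 lower at an unadjusted p under 0.05 (3.33% of all named genes were lower), or 2 lower without IL4i1 knockout replicate 2, with a median of -0.14. Mcpt2, the second mucosal protease, read 3.11, 3.50 and 3.43 in IL4i1 knockout colons, against 4.24, 4.24 and 5.07 in LAO1 knockout colons (-1.17 ± 0.50, adjusted p = 0.843). Against the same wild type arrays, Mcpt2 differed by -3.74 in the IL4i1 knockout (limma adjusted p = 0.0317) and by -2.57 in the LAO1 knockout (limma adjusted p = 0.84). The carboxypeptidase Cpa3 lay in the same order without passing, at 3.53, 3.76 and 3.78 against 4.74, 4.61 and 4.25 in the LAO1 knockout (-0.84 ± 0.43, adjusted p = 0.845). The IL4i1 knockout readings of Mcpt2 and Cpa3, like those of Mcpt1, lie near the bottom of the range. Kit, the growth factor receptor of mast cells and of the pacemaker cells of the gut, differed by -1.02, or -0.56 without IL4i1 knockout replicate 2. The remaining one of the 4 was the tryptase Tpsg1 (-1.13). Over the whole list 11 differences were negative and 8 positive, from Tpsb2 (-0.16) and Cma2 (-0.38) to Mcpt4 (0.11) and the dim Cma1 (0.35).

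Secreted epithelial defence proteins went both ways. Itln1, a lectin that binds sugars of microbes, read 9.90, 11.41 and 11.49 in IL4i1 knockout colons, against 12.36, 14.49 and 13.88 in LAO1 knockout colons (-2.64 ± 0.58, adjusted p = 0.519), while the wild type read 11.41 to 12.37. Retnlb, a goblet cell protein that acts on bacteria, read 15.80, 18.20 and 18.04 against 18.98, 19.19 and 19.25 in the LAO1 knockout (-1.79 ± 0.49, adjusted p = 0.704), with values in the LAO1 knockout close to the ceiling of 19.93. Of 20 antimicrobial and acute phase genes, 2 were higher and 3 lower at an unadjusted p under 0.05. Over all named genes the shares were 2.55% and 3.33%. The higher 2 were Wfdc2 and the dim Camp (0.49), the lower 3 Retnlb, Retnla (-2.28) and Ang4 (-1.17), and the median was 0.05. Without IL4i1 knockout replicate 2, 1 was higher and 1 lower. Reg3b (0.35), Reg3g (-0.18) and Lcn2 (0.16), markers of an inflamed epithelium, were close to 0.

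Of 19 junction genes, 1 was higher and 1 lower at an unadjusted p under 0.05, and neither passed the test. Over all named genes the shares were 2.55% and 3.33%. Cldn15, the claudin that forms sodium pores between gut epithelial cells, read 12.78, 11.63 and 12.66 in IL4i1 knockout colons, against 13.45, 14.12 and 14.00 in LAO1 knockout colons (-1.5 ± 0.28, adjusted p = 0.38). Cldn8, a sealing claudin of the distal colon, read 6.62, 6.41 and 8.47 against 6.16, 5.43 and 5.51 in the LAO1 knockout (1.47 ± 0.50, adjusted p = 0.806). The median over the 19 junction genes was 0.03. Absorptive colonocyte genes gave a median of 0.04, or -0.27 without IL4i1 knockout replicate 2, with mean levels that ran from 12.29 to 14.14 in the IL4i1 knockout and from 12.71 to 13.85 in the LAO1 knockout.

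In the pathways on which the deleted enzymes act, no gene passed the test between the knockouts. Among 12 oxidases of amino, hydroxy and amine substrates, 0 were higher or lower at an unadjusted p under 0.05 (5.88% of all named genes were), and the median was 0.18. Without IL4i1 knockout replicate 2, 2 were higher, against 454 of the 19505 named genes. Hao2, a peroxisomal hydroxy acid oxidase, read 12.17, 12.22 and 12.07 in IL4i1 knockout colons, against 12.00, 11.90 and 11.96 in LAO1 knockout colons (0.20 ± 0.28, adjusted p = 0.948). Of 22 amino acid transporters, 0 were past that level, with a median of -0.22, and of 11 aryl hydrocarbon receptor targets likewise 0, with a median of -0.18. Both medians were nearer 0 without IL4i1 knockout replicate 2, at -0.08 and -0.05.

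Of 13 kynurenine pathway genes, 3 were higher and 0 lower at an unadjusted p under 0.05 (2.55% of all named genes were higher), or 2 higher without IL4i1 knockout replicate 2, with a median of 0.23. Kyat1, an aminotransferase that makes kynurenic acid and acts on other amino acids, read 8.70, 8.16 and 9.55 in IL4i1 knockout colons, against 8.13, 7.81 and 8.13 in LAO1 knockout colons (0.78 ± 0.31, adjusted p = 0.843). The other 2 were Haao (0.70) and Tdo2, which was dim at 2.59 to 3.57 in the IL4i1 knockout and 2.31 to 2.44 in the LAO1 knockout. Ido1, which starts the pathway from tryptophan and is named in the study's title, was low in both single knockouts, at 4.36, 4.72 and 5.01 in IL4i1 knockout colons and 4.48, 4.37 and 3.85 in LAO1 knockout colons. The difference was 0.46 ± 1.34 (adjusted p = 0.981), and its error takes in the spread of the double knockout (14.85, 7.88 and 11.14) and wild type (3.40, 5.93 and 7.91) arrays.

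At an unadjusted p under 0.05, 1 of 11 tyrosine breakdown genes was higher and 2 lower (2.55% and 3.33% of all named genes). Without IL4i1 knockout replicate 2, 2 were higher and 1 lower. Hpd, the dioxygenase that acts on the keto acid of tyrosine, read 11.84, 9.36 and 11.69 in IL4i1 knockout colons, against 12.80, 12.56 and 12.61 in LAO1 knockout colons (-1.69 ± 0.59, adjusted p = 0.806), and the groups did not overlap, though the difference was -0.89 without IL4i1 knockout replicate 2. Gstz1, a later step, differed by -0.69 ± 0.20 and Fah, the last, by 0.68 ± 0.27. Of 26 genes that make or remove peroxide and superoxide, 0 were higher and 2 lower, Prdx4 and Gclm (3.33% of all named genes were lower). Prdx4, the peroxiredoxin of the endoplasmic reticulum, differed by -0.79 ± 0.22 (adjusted p = 0.704). Gclm, a subunit of the enzyme of glutathione synthesis, differed by -0.57 ± 0.18 (adjusted p = 0.781). The epithelial oxidase gene Nox1 differed by -0.89 and catalase, Cat, by -0.38.

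Genes of amino acid shortage and of cell division lay below the LAO1 knockout in part. Asns, asparagine synthetase and a target of ATF4, read 10.55, 10.54 and 11.10 in IL4i1 knockout colons, against 12.06, 11.57 and 11.97 in LAO1 knockout colons (-1.14 ± 0.35, adjusted p = 0.756). Mthfd2, of mitochondrial folate metabolism, differed by -0.94, and the median over the 20 genes of that list was -0.12, or -0.26 without IL4i1 knockout replicate 2. Slc38a9, the lysosomal arginine sensor, read 11.35, 10.04 and 10.80 against 12.43, 11.85 and 12.11 in the LAO1 knockout (-1.40 ± 0.32, adjusted p = 0.567). Of 23 replication and mitosis genes, 22 had a negative difference (48.7% of all named genes did), and the median was -0.33. At an unadjusted p under 0.05, 4 were lower (3.33% of all named genes were). The 4 were Bub1 (-1.26), Ccna2 (-1.21), Ube2c (-1.24) and Ccnb2 (-0.95). Without IL4i1 knockout replicate 2 the median was -0.52, but 17 differences were negative and 6 positive. With all arrays, the helicase genes Mcm2, Mcm3, Mcm5 and Mcm6 differed by -0.10 to -0.06, and Mcm4 by 0.25, the positive one of the 23.

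**Figure D5:**
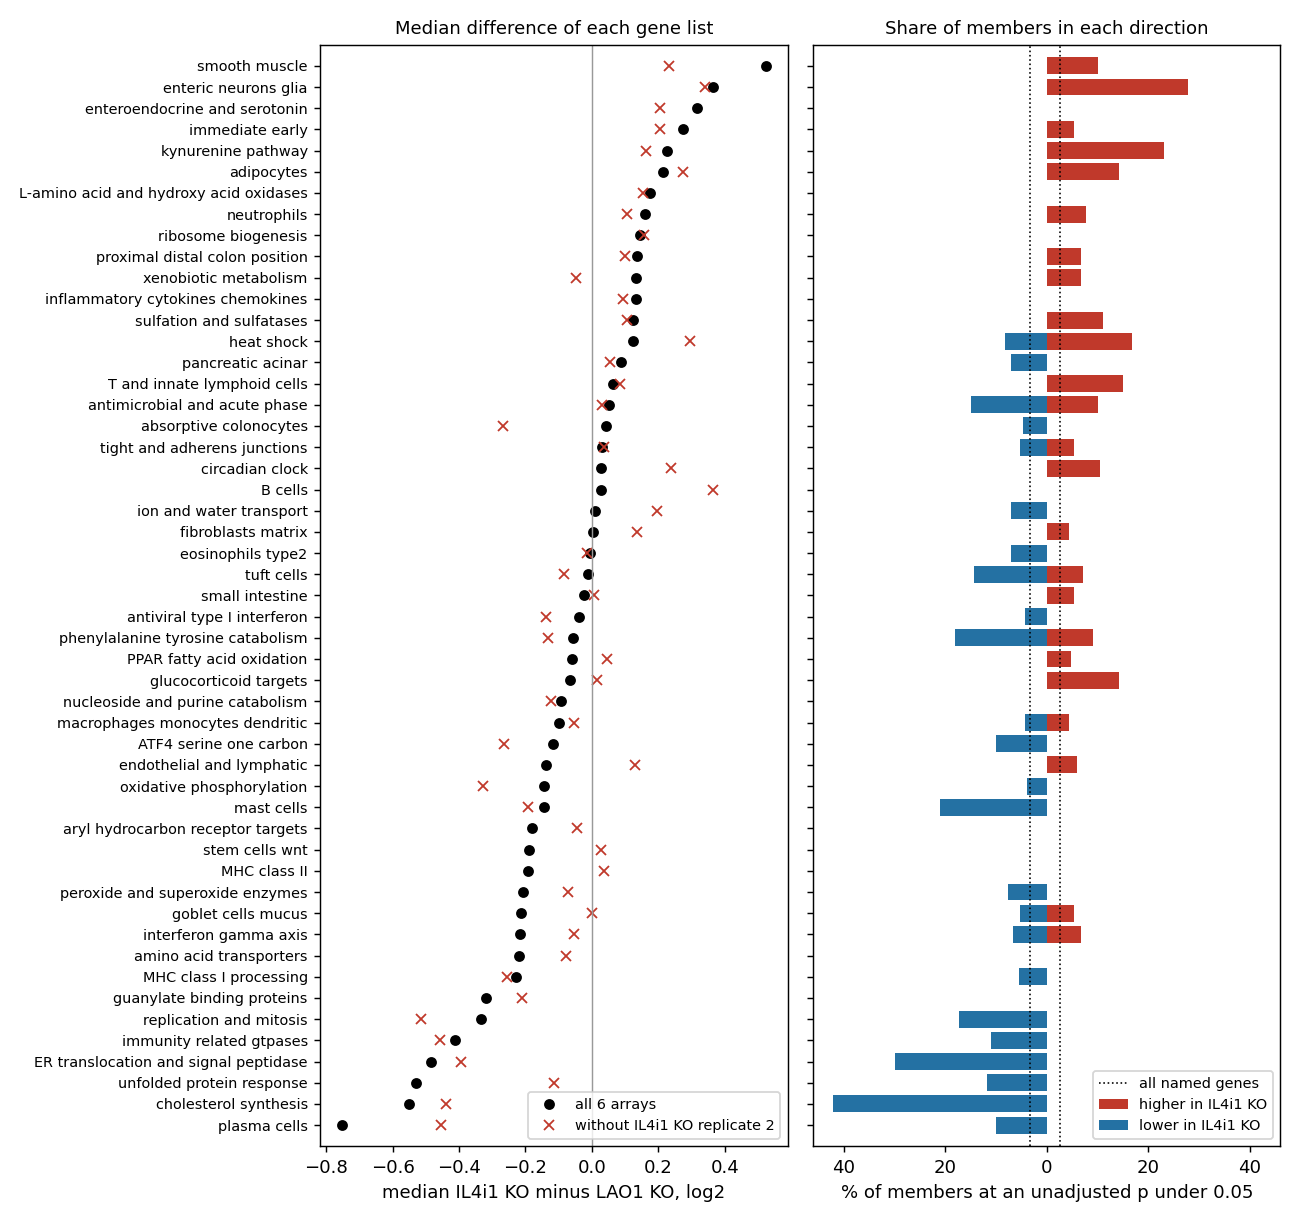
Left, median difference (IL4i1 knockout minus LAO1 knockout, log2) of each gene list with all 6 arrays (points) and without IL4i1 knockout replicate 2 (crosses). Right, share of each list's members at an unadjusted p under 0.05 in each direction, with dotted lines at 2.55% and 3.33% for all named genes; cholesterol synthesis reaches 8 of 19 members lower and enteric neurons and glia 5 of 18 higher.

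For several immune gene lists, the median lay below wild type in both single knockouts and differed less between them. Medians for MHC class I processing were -0.23 between the knockouts, with -0.69 (IL4i1 knockout) and -0.43 (LAO1 knockout) against wild type. For antiviral type I interferon genes they were -0.04, and -0.53 and -0.32, and for macrophage and monocyte genes -0.10, and -0.45 and -0.25. The interferon gamma axis went otherwise, at -0.22, and -0.12 and -0.13. A further 3 lists are given in more detail. The median of 9 immunity-related GTPase genes, which act against parasites inside cells under interferon gamma, was -0.41 between the knockouts, with -1.60 for the IL4i1 knockout and -0.83 for the LAO1 knockout against the same wild type arrays. For 6 guanylate binding proteins, of the same response, the values were -0.32 between the knockouts and -1.17 and -0.68 against wild type, and for 10 genes of MHC class II antigen presentation -0.19, and -0.75 and -0.52. By array means, the LAO1 knockout overlapped the wild type in all 3 lists, and the IL4i1 knockout did so for MHC class II. There, replicate 1 read 7.28 in the IL4i1 knockout and 7.33 in the LAO1 knockout, above the wild type at 6.97 to 7.15. The direction of the MHC class II list between the knockouts rested on IL4i1 knockout replicate 2. Without that array its median was 0.04, with 5 of 10 genes negative and 5 positive. Of the genes in these 3 lists, 0 were higher and 1 was lower between the knockouts at an unadjusted p under 0.05. Over all named genes the shares were 2.55% and 3.33%. Of 20 T cell and innate lymphoid genes, 3 were higher at that level (2.55% of all named genes were). Each of the 3 was dim (Tbx21, Cd3d and Cd160, 0.58 to 0.84), and Cd3e differed by 0.08.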

How the data were processed

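The sample labels gave the groups and replicate numbers, and the labels' protocols state that 6 µg of total RNA was labelled. The authors deposited log2 expression values of 22206 probes on 12 arrays, between 1.72 and 19.93 and given to 2 decimals. Transcriptome Analysis Console, without a version, is the tool in the submitters' processing notes. Neither normalization nor genome build is given in the sources used here. Coordinates are therefore printed only for RefSeq promoters. Values were used as deposited, without a filter. For arrays, the number of arrays limits the precision.

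Platform annotation named 19572 probes with 1 gene symbol, 0 with several and 2634 with none. It can be old, and symbols were checked through a RefSeq table (GRCm38.p6), which changed 0. For the 55 genes with more than 1 probe, the probe with the highest mean was used, a total of 19505 genes.

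The test was limma (version 3.58.1, R version 4.3.3), two-sided, with lmFit and eBayes applied to the 12 arrays together and a separate mean for every genotype. Wild type and double knockout arrays entered the direct difference only through the spread. p-values were adjusted by Benjamini-Hochberg over all probes, called under 0.05 whatever the fold. Errors are standard errors of the fit. The fit was tested on simulated data. Lists were described by counts and medians, with no test of a list. Named genes are those past the threshold, then those with the smallest p up to 12 in each direction, and from each list described up to 4 members with the smallest p and its defining members. Those listed beyond that rule were chosen after their values were seen. The genotype comparison, gene lists and alternatives were chosen with earlier results of these data known. Alternatives changed the arrays, the normalization, the filter and the prior variance. Figures used matplotlib 3.10.9 in Python 3.11.15.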

Additional observations from a re-analysis of the deposited data

Results flagged for a closer look

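Rhbdl2 differed between the 2 single knockout groups in the direct test, by 2.76 on the log2 scale (IL4i1 knockout minus LAO1 knockout, limma adjusted p = 0.0168). All 3 of 3 IL4i1 knockout arrays lay above 3 of 3 LAO1 knockout arrays. Against the shared wild type arrays, the values were 1.13 for the IL4i1 knockout and -1.63 for the LAO1 knockout. The call was lost without LAO1 knockout replicate 2 or 3 and without IL4i1 knockout replicate 2 or 3, with adjusted p of 0.0672 to 0.16.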

How the results depend on the processing

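The count of probes past the threshold was 1 in the fit as reported. It was 0 with the 6 arrays of the single knockouts alone, 3 with the replicate number as a block, 2 with median centring, 4 with an intensity trend, 2 with a robust prior and 3 with array weights. It was 1 with quantile normalization and with bright probes alone. Leaving out 1 array at a time gave 0 to 4: 4 without LAO1 knockout replicate 1, 0 without LAO1 knockout replicate 2 or 3 or IL4i1 knockout replicate 2 or 3, 1 without IL4i1 knockout replicate 1, and 2 without double knockout replicate 2, an alternative chosen after seeing the data. Deviations from the group means correlated at 0.0694, 0.128 and 0.052 between same-numbered arrays of the 2 knockouts. Arrays of different numbers were not compared in this way. Whether the replicate numbers pair the arrays was therefore not tested, and the reported fit has no block.

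Rhbdl2 kept its direction in all 15 alternatives and stayed past the threshold in 10. Its adjusted p was 0.096 with 6 arrays alone, 0.0932 and 0.0672 without LAO1 knockout replicate 2 or 3, and 0.0684 and 0.16 without IL4i1 knockout replicate 2 or 3, settings with fewer arrays. Me1 passed in 6 alternatives (adjusted p of 0.00743 to 0.0493), Nt5c1a in 2 (0.0484 and 0.0254), Mcpt1 with an intensity trend (0.0484) and Itln1 with the replicate block (0.0057). Of 372 values of 25 traced genes, 1 turned its sign: Lao1, which ran from -0.0133 without LAO1 knockout replicate 2 to 0.27 without replicate 3, and the cause was not tested. Of 825 list medians, 21 moved by more than 1 SD of the arrays of a group.

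With 3 arrays a group, differences in dim genes such as Lao1 and Tdo2, and in genes at the ceiling of the table such as Muc2, cannot be read.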

Other observations

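Over all named genes, 2 genes of lipid handling, chosen after their values were seen, had wider differences than Mcpt1 (-4.05). Pla2g4c, a phospholipase, read 10.55, 15.57 and 17.39 in IL4i1 knockout colons, against 18.82, 19.39 and 19.05 in LAO1 knockout colons, a difference of -4.58 that did not pass the test. Pnliprp2, a lipase, read 10.63, 10.23 and 13.84 in IL4i1 knockout colons, against 15.38, 15.78 and 16.02 in LAO1 knockout colons (-4.16). Its known partner Clps, colipase, read 10.02, 8.22 and 11.81 against 12.94, 13.07 and 13.04 in the LAO1 knockout (-3.00). For all 3 genes the groups did not overlap, as in that direction for 5.65% of all named genes. The acinar enzyme Ctrb1 was dim on all 6 arrays, at 2.55 to 3.04 in the IL4i1 knockout and 2.45 to 2.92 in the LAO1 knockout.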
